A study of Homo sapiens with 6 samples.

Results

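This account follows 10 genes of the SMAD pathway in RKO cells, a human colorectal cancer line, with and without extra connexin 43 (Cx43, the product of GJA1). The genes were taken by symbol from the deposited gene-level table of 63563 genes, in which each was found once: SMAD1 to SMAD7, the corepressors SKI and SKIL, and the ubiquitin ligase SMURF1. The control group (EV) carried the empty pcDNA3.1 vector and is labelled WT. The other group (OVER43) was stably transfected to overexpress Cx43 cDNA, and both groups were grown in DMEM. Each group had 3 libraries of poly(A) RNA, numbered 0 to 2 in the table. The labels do not say whether the 3 came from separate cultures or clones, so the p-values speak of library-to-library spread alone, part of which may be technical. The series title places the question in nuclear Cx43, β-catenin and TGF-β signalling.

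SMAD proteins carry signals of the TGF-β family from the cell surface to the nucleus. Activated receptors phosphorylate the receptor-regulated SMADs, of which SMAD2 and SMAD3 serve TGF-β and activin and SMAD1 and SMAD5 serve the bone morphogenetic proteins (BMPs), and these join the common partner SMAD4 to act on genes. SMAD6 and SMAD7 are inhibitory SMADs that are themselves induced by the pathway, SKI and SKIL bind SMADs on DNA and repress, and SMURF1 marks SMADs and receptors for degradation. SMAD4 is best known in the colon as a tumour suppressor.

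The main finding was lower SMAD3 RNA with Cx43 overexpression, at 15.4% of the control mean. SMAD3 was scarce, and only its EV libraries reached the minimum needed for testing (1 FPKM, a unit defined below). For such a gene this minimum favours a lower value in OVER43. With the minimum removed, the limma adjusted p of SMAD3 was 0.0546, above the threshold of 0.05. SMAD2, the other TGF-β receptor-regulated SMAD, and SMAD4 did not pass the test with the minimum in place. Promoters are shown for SMAD3 and for its chromosome 15 neighbour SMAD6, because SMAD3 was the member that changed most and SMAD6 the only member found with a palindromic SMAD-binding element in its window. The 250 bases before a RefSeq start site on GRCh38.p14, plus strand, run over chr15:67065352-67065601 for SMAD3 and chr15:66701986-66702235 for SMAD6. GGCGCC (a GC-rich SMAD site) is in capitals in the first and GTCTAGAC (the palindromic element) in the second.
SMAD3: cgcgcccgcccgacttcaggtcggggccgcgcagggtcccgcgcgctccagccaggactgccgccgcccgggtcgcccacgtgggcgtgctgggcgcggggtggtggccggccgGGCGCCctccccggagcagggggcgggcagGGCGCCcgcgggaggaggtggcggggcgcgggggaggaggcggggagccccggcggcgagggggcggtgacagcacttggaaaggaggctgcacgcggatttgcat
SMAD6: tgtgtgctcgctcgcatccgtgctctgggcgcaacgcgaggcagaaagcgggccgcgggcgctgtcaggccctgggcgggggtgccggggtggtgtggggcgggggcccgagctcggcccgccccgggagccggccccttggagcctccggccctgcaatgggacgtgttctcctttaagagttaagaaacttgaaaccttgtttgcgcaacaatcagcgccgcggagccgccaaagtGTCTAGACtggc
RefSeq windows of 300 bases (250 before the start and 50 after it) were given for 9 of the 10 members, in 20 windows in all. SMAD3 had 5 windows, of which the first listed is printed, and SMAD6 had 1. The printed SMAD3 window held GGCGCC at 136 and 106 bases before its start, and that of SMAD6 held GTCTAGAC at 12 bases before its start. GTCTAGAC lay in 0.202% of all 35116 promoter windows. GGCGCC was far more common, in 19.2% of all windows and in 8 of the 20 member windows. These belonged to 6 members (SMAD1, SMAD2, SMAD3, SMAD4, SMAD5 and SKIL), and a member can have several windows. The short element GTCTG, searched with its reverse complement CAGAC, lay in 45.3% of all windows and likewise in 8 of the 20 member windows. These were of 5 members (SMAD1, SMAD3, SMAD7, SKIL and SMURF1). Both strands were searched, GTCTG does not overlap GTCTAGAC, and a match describes letters only.

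The libraries held between 42100000 and 51200000 fragments, as read from the steps between low values, and deposited FPKM sums were 554170 to 566675 in OVER43 against 500290 to 508909 in EV. FPKM is fragments per kilobase of transcript and 1000000 mapped fragments. The gene value sums the FPKM of the gene's transcript entries, so levels of different genes are compared only on that summed scale. GJA1 was at 23.2, 26.0 and 24.9 FPKM in the OVER43 libraries and at 0.2999, 0.351 and 0.394 in EV, as the labels say. Markers of other cell types were near the floor: all 8 fibroblast markers (summed 0.545 to 0.751 FPKM in OVER43, 0.863 to 1.35 in EV) and all 4 endothelial markers (summed 0.259 to 0.432 and 0.112 to 0.175) stayed under 1 FPKM in every library, and PTPRC and CD3E were listed at 0 throughout. The exception was CD68, the only marker of the leukocyte list above 1 FPKM. With it that list summed to 368 to 387 FPKM in OVER43 and 405 to 421 in EV. Among epithelial genes KRT8, KRT18 and EPCAM were present, while CDH1 (E-cadherin) averaged 0.258 and 0.231 FPKM and VIL1 (villin) was lower still. In bulk RNA, fewer cells with a transcript and less of it per cell cannot be told apart.

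Of the 10 members, 8 passed a filter of at least 1 FPKM in at least 3 libraries, and 1 of these, SMAD3, passed limma's test on log2(FPKM + 1) at a Benjamini-Hochberg adjusted p under 0.05. In the same fit 45.9% of 12205 tested genes passed, 28.4% higher and 17.5% lower in OVER43. The median log2 fold change of the 8 tested members was 0.04, beside 0.05 for all tested genes. The OVER43 and EV libraries did not overlap for 2 of the 8 (SMAD1 and SMAD3), while they did not overlap for 56.3% of all tested genes. Fold changes are OVER43 over EV on the log2(FPKM + 1) scale, which understates changes of low genes.

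**Figure D1:**
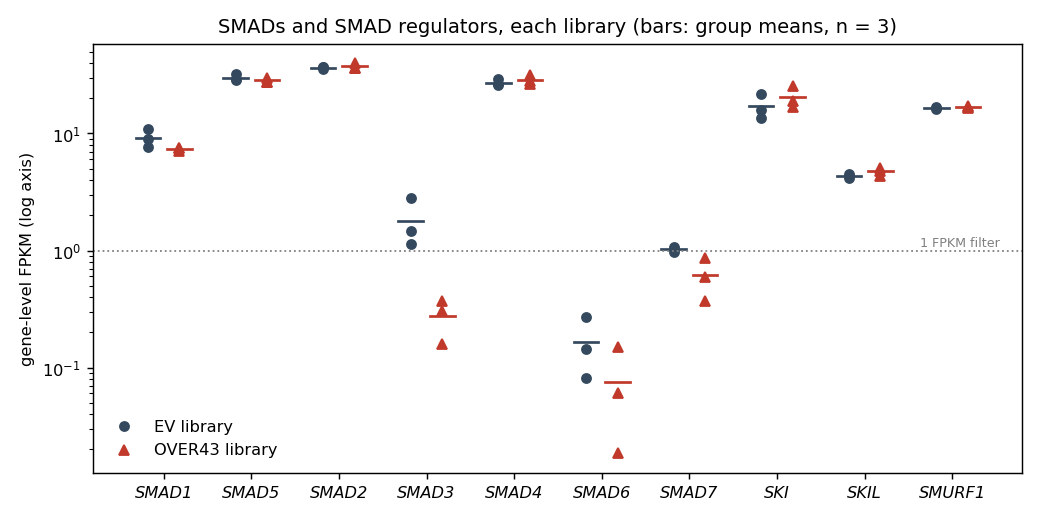
Gene-level FPKM (log axis) of the 10 members in each of the 3 EV libraries (dark circles) and 3 OVER43 libraries (red triangles), with short bars at the group means and a dotted line at the 1 FPKM filter. SMAD3 lies between 1.13 and 2.81 FPKM in EV and between 0.158 and 0.370 in OVER43, while the 5 members above 10 FPKM overlap between groups.

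SMAD1, a receptor-regulated SMAD of the BMP branch (chromosome 4, 146402346 to 146479231; this and the following member positions are the table's loci, which are hg19), was at 7.14, 7.47 and 7.54 FPKM in OVER43 and at 7.59, 10.9 and 9.01 in EV. Every OVER43 library lay below every EV library, but EV library 0 was only just above. The log2 fold change was -0.26 (SE 0.113) with a limma adjusted p of 0.0900. SMAD5, the other member of that branch (chromosome 5, 135465196 to 135524435), had higher FPKM.
Its values of 29.98, 27.6 and 27.6 FPKM in OVER43 overlapped the 28.9, 28.4 and 32.1 of EV, with a log2 fold change of -0.07 (95% interval -0.21 to 0.07) and a limma adjusted p of 0.398. SMAD1 made up 20.7% ± 1.23 of the summed SMAD1 and SMAD5 FPKM in OVER43 and 23.5% ± 3.67 in EV (SD, n = 3 each). Overlapping antisense genes are annotated at both loci (SMAD1-AS1, SMAD1-AS2 and SMAD5-AS1), and how strands were counted is not given in the sources used here.

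SMAD9, the third BMP receptor-regulated SMAD and not a member, fell from 5.24 ± 0.342 FPKM in EV to 3.93 ± 0.219 in OVER43 (SD, n = 3 each; log2 fold change -0.34, limma adjusted p 0.0115). It was the 1 of the 3 SMADs of this branch that passed the test in gene FPKM.

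SMAD2, which carries TGF-β and activin signals (chromosome 18, 45357922 to 45457515), had the highest gene FPKM of the members. It was at 39.6, 36.4 and 36.6 FPKM in OVER43 and at 37.3, 36.6 and 35.4 in EV, and the groups overlapped. Its log2 fold change was 0.04 (95% interval -0.07 to 0.15), with a limma adjusted p of 0.516, and the sign turned negative under 3 other scalings of the libraries.

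SMAD3, the second receptor-regulated SMAD of that branch (chromosome 15, 67356101 to 67487533), was at 0.306, 0.370 and 0.158 FPKM in OVER43 and at 1.47, 1.13 and 2.81 in EV. The groups were well apart, with the highest OVER43 library far under the lowest EV library, and the EV libraries were unequal among themselves. The means were 0.278 ± 0.109 and 1.80 ± 0.890 FPKM (SD, n = 3 each), a log2 fold change of -1.09 (SE 0.217, 95% interval -1.59 to -0.59) with a limma adjusted p of 0.00419. Only 1.03% of all tested genes were called with a fold change as low as this or lower. With a pseudocount of 0.1 in place of 1 the log2 fold change was -2.28. Without any filter on low values the limma adjusted p was 0.0546, so the call needs the filter. SMAD3 met the filter of 1 FPKM through its EV libraries alone. For such a gene the filter itself favours a lower value in OVER43, and the call and the 1.03% share carry that limit. In the authors' deposited table SMAD3 was the only 1 of the 10 members marked significant (q 0.000547), where 21.3% of testable genes were.

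SMAD3 had much lower gene FPKM than SMAD2 already in control cells. It made up 3.79%, 2.99% and 7.37% of the summed SMAD2 and SMAD3 FPKM in the EV libraries, and 0.766%, 1.01% and 0.431% in OVER43. The highest of the OVER43 shares was thus below the lowest EV share.

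SMAD4, the common partner of both branches (chromosome 18, 48494361 to 48611415), was at 28.3, 31.4 and 26.7 FPKM in OVER43 and at 29.3, 26.1 and 26.4 in EV. The libraries of the 2 groups were interleaved. The log2 fold change was 0.07 (95% interval -0.09 to 0.24), with a limma adjusted p of 0.435.

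The inhibitory SMADs were scarce. SMAD6 (chromosome 15, 66994566 to 67074338), which acts mainly on the BMP branch, was at 0.149, 0.0607 and 0.0185 FPKM in OVER43 and 0.143, 0.0820 and 0.272 in EV, below the filter, with overlapping groups and an exact two-sided permutation p of 0.3. SMAD7 (chromosome 18, 46446223 to 46477081), which blocks TGF-β receptors and recruits SMURF ligases to them, was at 0.868, 0.599 and 0.371 FPKM in OVER43 and at 0.971, 1.07 and 1.03 in EV. It too was below the filter, at 59.8% of the EV mean, with groups that did not overlap, as for 56.3% of all tested genes. The exact two-sided permutation p was 0.1, the smallest that 3 against 3 libraries can give.

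The corepressor SKI (chromosome 1, 2160134 to 2241558) was at 25.6, 18.96 and 16.9 FPKM in OVER43 and at 13.5, 15.8 and 21.8 in EV, the widest spread among the abundant members. Its log2 fold change of 0.26 had a 95% interval of -0.21 to 0.73 and a limma adjusted p of 0.323. SKIL (chromosome 3, 170075466 to 170114623), also called SnoN, was at 4.82, 4.35 and 5.11 FPKM in OVER43 and 4.48, 4.32 and 4.15 in EV, with a log2 fold change of 0.11 (adjusted p 0.308 by limma). SMURF1 (chromosome 7, 98475556 to 98741723, a locus shared with TRRAP) varied little, at 17.3, 17.0 and 16.5 FPKM in OVER43 and 16.1, 16.7 and 16.6 in EV. Its log2 fold change was 0.04 (95% interval -0.08 to 0.15, adjusted p 0.604 by limma).

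The deposited gene FPKM is the sum of the FPKM of a gene's transcript entries, so a few fragments on a short entry add as much as many on a long one. On average over the libraries, entries under 1000 bases (lengths from GENCODE 29) held 59.9% of SMAD4 FPKM, 43.9% of SMAD3, 42.9% of SMAD2 and 38.3% of SMAD5, against a median of 11.5% over 11843 tested genes. SMAD4-201, the 8769-base coding transcript, held 13.8% of SMAD4 FPKM in OVER43 but 50.5% of its fragments. Gene values were therefore also computed as fragments per gene, that is, transcript FPKM times length, summed and expressed per 1000000 fragments of the library (FPM). That measure was added after the FPKM results were seen. By fragments per gene 58.0% of 11488 tested genes passed limma's test (34.7% higher, 23.2% lower), and 5 of 9 tested members did, a share near the background.

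By this measure SMAD3 stood at 1.20, 0.825 and 0.925 FPM in OVER43 and 5.13, 4.77 and 7.49 in EV. The EV libraries were closer together than in FPKM, and the log2 fold change on the log2(value + 1) scale was -1.76 (SE 0.168). At the depth of these libraries this is roughly 38.8 to 58.3 fragments per OVER43 library and 201 to 348 per EV library. SMAD7 stood at 1.24, 0.817 and 1.10 FPM in OVER43 and 2.08, 2.25 and 3.32 in EV. Its log2 fold change was -0.78 (SE 0.175) and its adjusted p 0.00179 by limma, on roughly 38.4 to 60.6 fragments per OVER43 library and 94.8 to 154 per EV library. In FPKM the SMAD7 spread came in part from the 549-base SMAD7-205, listed at 0.518 FPKM in OVER43 library 0 and at 0 in the other two.

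SMAD1 also passed by fragments per gene (12.2, 12.9 and 11.7 FPM in OVER43, 14.005, 16.4 and 16.0 in EV), with a log2 fold change of -0.31 and a limma adjusted p of 0.00770. SKI passed in the other direction, as described with its transcripts. SMAD2 passed at -0.19, but this rested on a single entry, SMAD2-201, whose GENCODE 29 length of 34526 bases belongs to a later version than the deposited one. Without that entry SMAD2 stood at 76.5 ± 1.28 FPM in OVER43 and 75.7 ± 1.31 in EV (SD, n = 3 each). The lengths used for SMAD3-201, SMAD1-201, SMAD1-202 and SMAD4-201 also belong to other versions than the deposited ones. That of SKI-201 belongs to the same version. SMAD4, SMAD5, SKIL and SMURF1 did not pass by either measure. For SMAD6 only 41.5% of the FPKM had a length, and it was not tested.

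**Figure D2:**
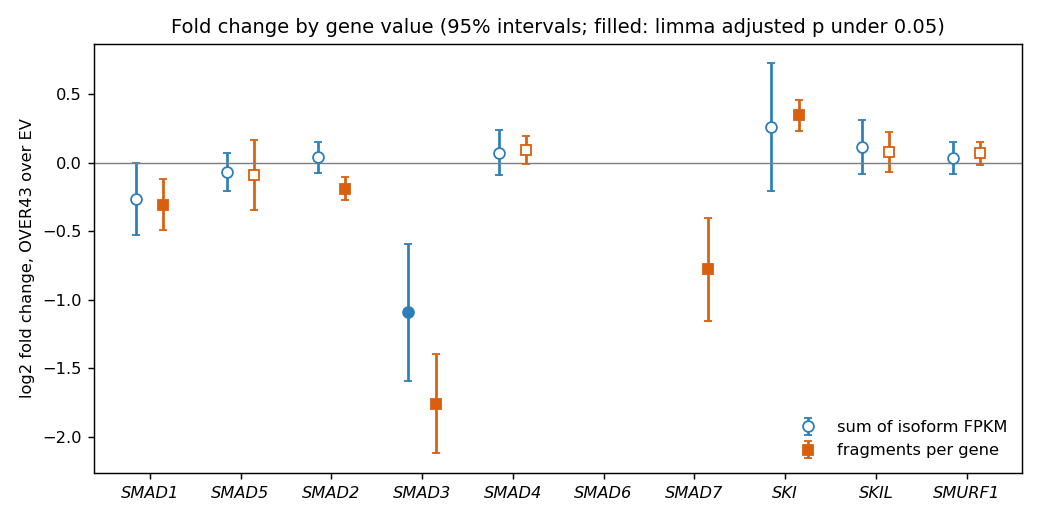
Log2 fold change of OVER43 over EV with 95% limma intervals for each tested member, from the sum of isoform FPKM (blue circles) and from fragments per gene (orange squares), filled where the adjusted p is under 0.05. SMAD3 is lowest by both (-1.09 and -1.76), SMAD7 was tested only by fragments (-0.78), and SMAD6 by neither. Both scales add 1 to values of different units, so sizes are not comparable between the 2 measures. SMAD3 in OVER43 stood at 15.4% of EV by FPKM and at 16.9% by fragments.

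Among the 105 transcript entries of the members, 25 were listed at 0 in all libraries and 25 passed the filter. By limma 1 of the 25 changed, SKI-201, where 14.5% of 30015 tested entries did (9.85% higher, 4.7% lower). SKI-201, the 5613-base coding transcript, was at 16.8, 15.3 and 16.2 FPKM in OVER43 and 12.5, 11.999 and 13.2 in EV. The groups were clearly apart, and it rose by a log2 fold change of 0.34 (adjusted p 0.0187). The call was lost with no filter (adjusted p 0.0856), with quantile scaling (0.0822) or equal FPKM sums (0.107), and when any of OVER43 libraries 0 and 2 and EV libraries 0 and 1 was left out (limma adjusted p 0.0611 to 0.0695).

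The spread of SKI in gene FPKM lay in SKI-202, a 294-base processed transcript. It was listed at 7.80, 3.01 and 0 FPKM in OVER43 and at 0, 2.66 and 7.26 in EV, in no relation to the groups. With SKI-202 left out, the rest of SKI summed to 16.7 ± 0.931 (OVER43) and 13.6 ± 0.733 (EV) FPKM (SD, n = 3 each). By fragments per gene SKI was at 97.2, 87.0 and 91.3 FPM in OVER43 and at 70.5, 68.4 and 76.8 in EV, a log2 fold change of 0.35 with a limma adjusted p of 7.5e-05. SKI-201 held 98.5% of these fragments in OVER43 and 98.0% in EV, so this largely repeats the result of that entry. Fragments per gene were fitted without rescaling only, and no library was left out.

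**Figure D3:**
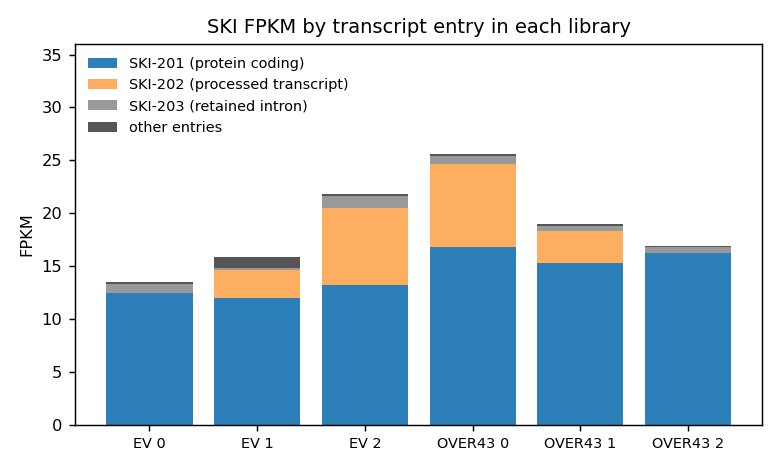
SKI FPKM in each library (vertical axis), stacked by transcript entry: SKI-201 (blue), SKI-202 (orange), SKI-203 (light grey) and the remaining entries (dark grey). The blue part is 11.999 to 13.2 FPKM in EV and 15.3 to 16.8 in OVER43, whereas the orange part runs from 0 to 7.26 in EV and from 0 to 7.80 in OVER43.

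By fragments SMAD3 was carried mainly by SMAD3-201, the 6247-base coding transcript, with an average share of 84.2% in OVER43 and 87.2% in EV. In FPKM the shares of SMAD3-201 were 58.1% and 48.9%. It was at 0.181, 0.0781 and 0.147 FPKM in OVER43 and at 0.703, 0.689 and 1.03 in EV, below the filter but with groups far apart, and it was marked significant in the authors' deposited table (q 0.00210). The 542-base SMAD3-213 was listed at 0.124, 0 and 0 FPKM in OVER43 and at 0.414, 0 and 1.35 in EV, so part of the unequal EV values of the gene sat on this short entry. With only SMAD3-213 left out, the SMAD3 entries, SMAD3-201 among them, summed to 0.235 ± 0.116 (OVER43) and 1.20 ± 0.213 (EV) FPKM (SD, n = 3 each).

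Long transcripts of SMAD5 and SMURF1 moved unequally in value but not past the test. SMAD5-212 was at 3.41, 5.60 and 2.28 FPKM in OVER43 and 6.64, 6.75 and 6.41 in EV (log2 fold change -0.73, with an adjusted p of 0.115 by limma), and the similar SMAD5-211 at 13.3, 12.7 and 12.3 against 12.2, 8.98 and 12.1. SMURF1-201 was at 2.75, 3.66 and 4.01 FPKM in OVER43 and 1.12, 1.48 and 3.47 in EV (adjusted p 0.239 by limma). SMURF1-202, which held most of the gene, averaged 12.7 and 13.4 FPKM. How reads were split between such near-identical entries is uncertain. In a test of transcript usage (limma's diffSplice, 1.87% of 26374 entries called, 0.91% with a larger part in OVER43 and 0.963% with a smaller) SMAD2-208 took a larger part of SMAD2 in OVER43, at 2.12, 1.84 and 1.82 FPKM against 0.451, 1.52 and 1.04, with an adjusted p of 0.0283. The call was lost when any of OVER43 libraries 0, 1 and 2 or EV library 0 was left out (adjusted p 0.107 to 0.202 by limma). On simulated data this test made more false calls than its threshold allows. With per-library differences in its place the limma adjusted p was 0.443, though that test recovered no changed entry on simulated data.

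The isoform table also lists, for most genes, an entry under the gene's own identifier, which spans the whole locus and so takes fragments from introns. These values are tiny because they are divided by the length of the locus. For SMAD3 the entry was at 0.00161, 0.00151 and 0.00188 FPKM in OVER43 and at 0.0132, 0.0125 and 0.0154 in EV. That is roughly 9.33 to 11.4 fragments per OVER43 library and 69.0 to 93.6 per EV library over 131.433 kb, and the groups were far apart with tight libraries. OVER43 stood at 12.2% of EV here and at 16.9% by fragments per gene. A limma fit over 11564 such entries was added after the gene results were seen, on log2(FPKM + 0.001). It gave SMAD3 a log2 fold change of -2.46 (SE 0.350, adjusted p 0.00942). Entries needed at least 0.005 FPKM in at least 3 libraries. SMAD3 reached this in its EV libraries alone, so the limit given for its gene call holds here too. Of all entries 20.8% were called (3.61% higher, 17.2% lower), 0.761% with a fold change as low as that of SMAD3 or lower, and the median of all was -0.17. This lean to lower values depended on scaling: 417 were higher and 1984 lower as deposited, 828 and 936 with TMM scaling, and 597 and 836 with quantile scaling.

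SMAD3 was the 1 of 10 members called at this level, and 9 of the 10 had a negative value, of which SMAD2, SMAD4 and SKI were positive under TMM scaling. SMAD6 was at 0.00262, 0.00510 and 0.00328 FPKM in OVER43 and 0.00851, 0.00756 and 0.00747 in EV (log2 fold change -0.96, with an adjusted p of 0.131 by limma). SMAD7 was at 0.0139, 0.00225 and 0.00307 against 0.0143, 0.0118 and 0.0114, where OVER43 library 0 was as high as EV (log2 fold change -1.21, adjusted p 0.217 by limma). Without that library the limma adjusted p was 0.0436, and with any other single library left out it was 0.317 to 0.422. SKI, whose coding transcript was called higher but not under every scaling, was at 0.141, 0.158 and 0.157 FPKM in OVER43 by its whole-gene entry. In EV this entry was at 0.152, 0.171 and 0.170 (log2 fold change -0.11, adjusted p 0.406 by limma).

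**Figure D4:**
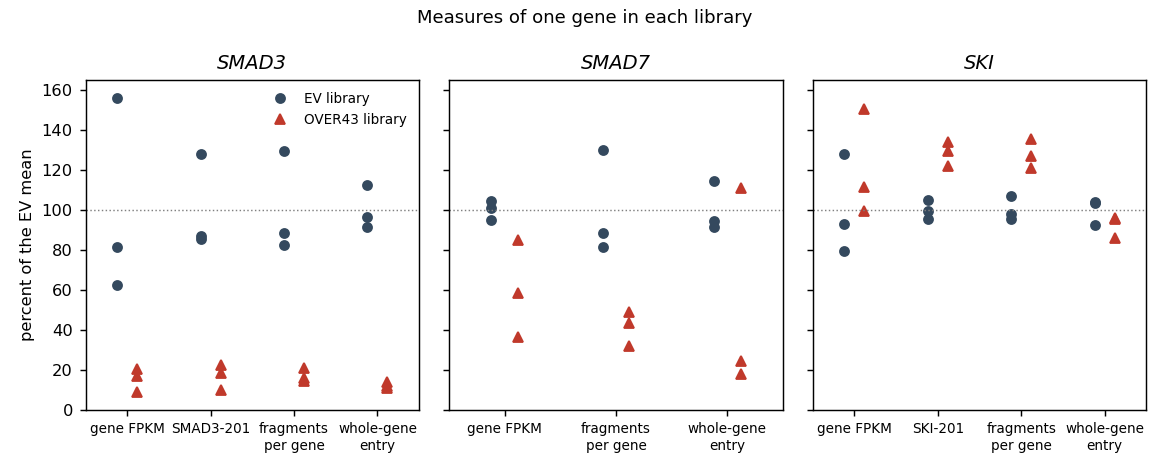
SMAD3, SMAD7 and SKI in each library as percent of the EV mean, for the gene FPKM, the main coding transcript where named, the fragments per gene and the whole-gene entry (EV dark circles, OVER43 red triangles). For SMAD3 every OVER43 library lies far below every EV library by all 4 measures. For SKI the groups overlap in gene FPKM and are apart in SKI-201 and fragments per gene.

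Genes around SMAD3 moved in both directions. Within 5 Mb of its locus 65 genes were tested, of which 23 were higher and 7 lower by limma (28.4% and 17.5% of all tested genes were), with a median log2 fold change of 0.04. The lowest of the 65 was CA12 at -0.75. Of the genes next to SMAD3, AAGAB had a log2 fold change of 0.07 (adjusted p 0.334), C15orf61 of 0.35 (0.0251) and IQCH of -0.53 (0.0236), all by limma, so the adjacent genes differed in direction. IQCH met the filter through its EV libraries alone. The medians around the other 9 members were between 0.04 and 0.15.

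**Figure D5:**
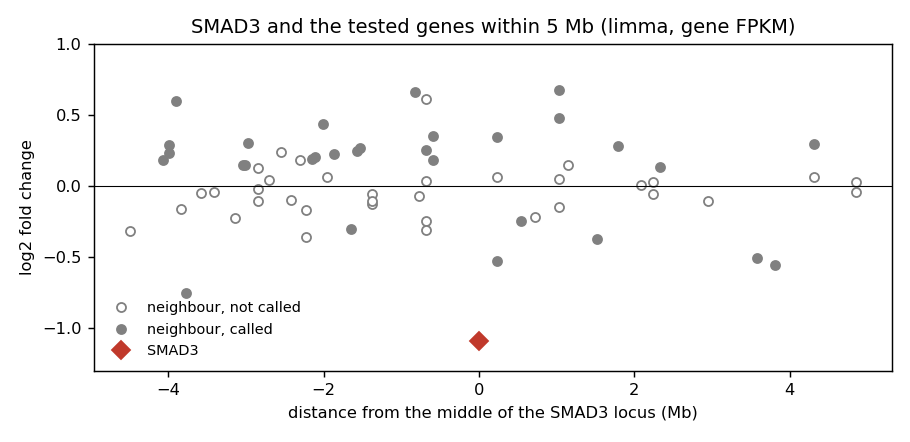
Log2 fold change of gene FPKM (vertical axis) for SMAD3 (red diamond) and the 65 tested genes within 5 Mb, by distance from the middle of the SMAD3 locus in Mb, filled where the limma adjusted p is under 0.05. The neighbours scatter around 0 between -0.75 and 0.68, and SMAD3 at -1.09 is below them all.

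The rest of the pathway was read from lists of 101 genes, of which 73 were tested. Together 20 were higher and 22 lower by limma, 57.5% called (45.9% of all tested genes, 28.4% higher and 17.5% lower), with a median log2 fold change of -0.01 beside 0.05 for all. The split was 17 higher and 26 lower with TMM scaling and 13 and 31 with equal FPKM sums. The count of each list stands against the same background. Among 4 tested ligands 2 fell: BMP4 from 2.04 ± 0.484 to 0.201 ± 0.0652 FPKM (log2 fold change -1.33, adjusted p 0.000288) and GDF11, an activin-like ligand, from 15.2 ± 1.10 to 10.5 ± 0.879. BMP4, like SMAD3, met the filter through its EV libraries alone. TGFB1 itself was at 47.7, 47.1 and 48.9 FPKM in OVER43 and 45.9, 45.7 and 50.01 in EV (log2 fold change 0.02, adjusted p 0.728 by limma, of negative sign under 3 other scalings).

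Of 9 tested receptors 3 fell and none rose (median log2 fold change -0.18), beside 17.5% of all tested genes lower. By fragments per gene 10 were tested, of which 6 were lower and 1 higher, beside 23.2% lower and 34.7% higher of all genes tested that way. TGFBR1, the type I receptor that phosphorylates SMAD2 and SMAD3, was at 16.5, 15.4 and 13.3 FPKM in OVER43 and at 22.9, 18.4 and 22.2 in EV. TGFBR2, its type II partner, was at 3.55, 4.04 and 3.33 against 4.36, 4.88 and 5.55, and the coreceptor TGFBR3 averaged 1.62 and 2.40. The groups did not overlap for these 3, as for 56.3% of all tested genes, and their limma adjusted p were 0.00647, 0.0253 and 0.0404. All 3 calls were lost without the filter on low values, and those of TGFBR2 and TGFBR3 also under quantile scaling (adjusted p 0.0737 and 0.0971 by limma). TGFBR2 also lost its call in 4 of the 6 fits with 1 library left out (all but those without OVER43 library 1 or EV library 0), and TGFBR3 in 5 of 6 (all but that without OVER43 library 2). Among 8 membrane adaptors 3 fell, including STRAP, which helps SMAD7 hold receptors inactive (207 to 178 FPKM), and the pseudoreceptor BAMBI (1.95 to 1.10), and TGFBRAP1 rose, a call lost with equal FPKM sums.

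SMAD cofactors were split, with 2 of 17 tested genes higher and 5 lower (median -0.04). MECOM (EVI1), which binds SMAD3 and represses its activity, fell from 7.07 ± 0.627 to 4.32 ± 0.274 FPKM, and the corepressor TGIF2 rose from 20.6 ± 2.49 to 24.9 ± 1.17, a call lost under TMM, quantile and equal-sum scaling, with no filter, and when OVER43 library 0, OVER43 library 2 or EV library 1 was left out (limma adjusted p 0.0610 to 0.260). Of 16 ubiquitin ligases, deubiquitinases and phosphatases 7 were higher and 3 lower (median 0.11). PPM1A, a SMAD2 and SMAD3 phosphatase, rose from 27.9 ± 2.79 to 36.7 ± 0.163 FPKM, CTDSP1 rose from 26.3 ± 1.31 to 33.8 ± 0.277, and its relative CTDSP2 fell from 41.6 ± 1.27 to 34.8 ± 0.522. SMURF2, the relative of SMURF1, was at 131 ± 1.73 against 121 ± 1.38 (adjusted p 0.00942), higher as deposited but lower under quantile and equal-sum scaling, and not called under either or under TMM scaling. Errors in these paragraphs are SD over 3 libraries.

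All 6 genes of SMAD nuclear transport were called by limma, 5 higher and 1 lower (median 0.25), where 28.4% of all tested genes were higher and 17.5% lower. With quantile scaling 4 were higher and 1 lower, and with equal FPKM sums 3 and 1. XPO1, the exporter of SMAD4, rose from 86.9 ± 2.71 to 111 ± 3.27 FPKM and XPO4, an exporter of SMAD3, from 15.9 ± 0.933 to 20.5 ± 1.42, while the importin IPO8 fell from 41.1 ± 1.31 to 32.7 ± 0.350.

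Of 8 tested TGF-β targets 5 fell and 2 rose (median -0.27): IL11 was at 8.25, 6.67 and 6.74 FPKM in OVER43 and 28.8, 32.1 and 37.5 in EV. BHLHE40 fell from 81.5 ± 0.963 to 28.6 ± 3.46, whereas LTBP2 rose from 21.9 ± 0.455 to 27.4 ± 1.36 and TGM2 was at 1.45 ± 0.193 against 0.858 ± 0.256. The TGM2 call was lost under TMM and equal-sum scaling and in 5 of the 6 fits with 1 library left out (all but that without EV library 2). Of 5 tested BMP targets 3 rose and none fell (median 0.74). ID1 was at 24.2, 21.9 and 27.2 FPKM in OVER43 and 5.33, 7.20 and 7.95 in EV, ID3 averaged 59.6 ± 6.60 against 19.3 ± 0.662 and MSX1 18.2 ± 1.48 against 10.6 ± 1.57. These lists were drawn up with earlier results of the series known, and their genes respond to other signals as well. Whether the targets moved with SMAD3 was not tested.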

How the data were processed

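Poly(A) RNA from 3 EV and 3 OVER43 RKO samples was made into TruSeq libraries, per the labels' protocols. Per the submitters' processing notes, Cuffdiff was used (version not given in the sources used here). The deposited values are FPKM per gene and per transcript. The authors also deposited a log2 fold change (EV over OVER43), a test score, a p-value and a q-value for each. The notes name hg38, but the deposited loci are hg19 positions. Columns are numbered 0 to 2 and the labels 1 to 3, so a column is a library of its group and not a given sample. Of the 63563 genes, 19 without an estimate were left out. Symbols matched 52178 gene IDs.

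The FPKM values were tested with limma 3.58.1 (trend, robust) in R 4.3.3 on log2(FPKM + 1), two-sided, group only, over genes or transcripts with at least 1 FPKM in at least 3 libraries, with Benjamini-Hochberg adjustment over all tested and a threshold of 0.05. Scripts were tested on simulated data. Depth (42100000 to 51200000 fragments) was read from steps between low values, and 100% of 126 to 152 such values per library lay within 0.1 of a whole number of fragments. Transcript lengths came from GENCODE 29, with versions that partly differ from the deposited ones. Promoters came from RefSeq (GRCh38.p14). Fragments per gene, whole-gene fits and per-library usage differences were added after seeing the data.

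All 10 members are described. Named besides are GJA1, member transcripts of at least 0.5 FPKM in either group where they bear on a result, SMAD3 neighbours, and from each list called genes among the 2 highest and 2 lowest, plus TGFB1, TGFBR1, TGFBR2, SMAD9, SMURF2, ID1 and ID3. Some listed genes are not reported here. The members and lists were chosen with earlier results of these data known.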

Additional observations from a re-analysis of the deposited data

How the results depend on the processing

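SMAD3 kept its sign and its call under the other pseudocount, 3 other scalings, fragments per gene and every left-out library (log2 fold change -1.27 to -0.85). All of these fits kept a filter on low values, which the EV libraries of SMAD3 met by themselves. They therefore carry the limit given for its gene call. SMAD3 lost the call with no filter and could not be tested with a minimum of 5 FPKM. The number of members changed was 0 with no filter, 0 with a minimum of 5 FPKM, 3 with equal FPKM sums (SMAD1, SMAD3 and SMAD5), 5 by fragments per gene, and 1 to 2 when 1 library was left out (SMAD1 was the second, without EV library 0). Scaling moved the split of all genes from 3462 higher and 2138 lower to 2839 and 2562 (TMM factors), 2549 and 2446 (quantile), and 1867 and 3579 (equal FPKM sums). Under equal sums the median of all genes was -0.08.

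Small member values changed sign with scaling. SMAD2 was at -0.0087 (TMM), -0.051 (quantile), -0.098 (equal sums) and -0.19 (fragments per gene), and SMURF1 at -0.014, -0.032 and -0.10 under the 3 scalings. SMAD4 was at -0.016 (quantile) and -0.065 (equal sums), and SKIL at -0.0038 (equal sums). TGFB1 was at -0.029 (TMM), -0.10 (quantile) and -0.12 (equal sums), and SMURF2 at -0.062 (quantile) and -0.019 (equal sums). Among whole-gene entries SMAD2 was at 0.043 (TMM) and 0.10 (quantile), SMAD4 at 0.13 and 0.17, SKI at 0.061 and 0.041, and SMURF1 at 0.012 (quantile). Leaving out 1 library gave SMAD4 between -0.21 and 0.14, positive without OVER43 library 2 or EV library 2 (0.068).

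The count of changed transcripts was 4366 as reported, 1744 with no filter and 2486 to 3505 without 1 library. Changed usage went from 494 entries to 2047 with no filter, 287 to 874 without 1 library and 3 by per-library differences. The count of changed whole-gene entries was 2401 as reported, 1433 with quantile scaling and 1106 to 1535 without 1 library. The cause of these shifts was not tested. Of 9 tested receptors 5 were called with TMM and 6 with equal sums, all lower, and 1 without EV library 1 or 2. By fragments 7 of 10 were called (1 higher, 6 lower). Among all tested genes 2562 of 12212 were lower with TMM and 3579 of 12222 with equal sums. By fragments 6661 of 11488 genes were called. Without EV library 1 or 2 these counts were 4845 and 5087 of 12205.

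The column numbers did not pair the libraries (correlations of same-numbered deviations 0.02, -0.09 and 0.03). With the number as a replicate block, 5316 genes, 2139 transcripts and 799 whole-gene entries were called. SMAD3 kept its gene call (adjusted p 0.0120 by limma) but not that of its whole-gene entry (0.0538), and SKI-201 (0.0583) and the usage of SMAD2-208 (0.0847) lost their calls. No SMAD3 transcript entry passed the filter, so none was tested for level or usage.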

Other observations

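Across the 11031 genes tested by both the sum of isoform FPKM and fragments per gene, 4935 were called by limma under both, 349 by FPKM only and 1536 by fragments only. The shared calls were 93.4% of the FPKM calls and 76.3% of the fragment calls, and 0 of them had opposite signs. SMAD1, SMAD2 and SKI were among the genes called by fragments only.

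Epithelial genes that are no part of the SMAD pathway changed in opposite directions: KRT18 rose from 79.4 ± 3.68 to 148 ± 0.989 FPKM and EPCAM from 12.5 ± 0.293 to 20.5 ± 1.54, while KRT8, the usual partner of KRT18 in keratin filaments, fell from 58.7 ± 1.92 to 24.6 ± 1.63 (SD, n = 3 each).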
